A study of Danio rerio with 18 samples.

Results

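The 640 regions described here are testis enhancers that overlapped an enhancer of the brain and none of the heart or intestine of adult zebrafish. They were taken from the 9434 typical enhancers of the testis, of which they made up 6.78% (exact 95% interval 6.28 to 7.31), and from 66306 regions in all lists. The regions were chosen by the measured overlap of the lists. A region was a member when it shared 1 bp or more with a brain enhancer of either class and no base pair with any enhancer of the heart at 10 months, the heart at 1 year or the intestine at 1 year. Overlap with brain, whatever other sets a region met, was common, since 4509 testis typical enhancers, or 47.8%, had it. Both values describe the choice of regions and were not tested.

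Acetylation of lysine 27 on histone H3 (H3K27ac) marks nucleosomes beside active enhancers and promoters, where co-activator acetyltransferases are recruited by bound transcription factors. Super-enhancers are long domains of the mark, usually joined from several neighbouring stretches, that carry high signal and often lie around genes that define a cell type. Typical enhancers are the remaining regions, and some of these are joined as well, 16.8% of those in the testis list. The testis is made up largely of germ cells, which pass through meiosis and repack their chromatin, together with Sertoli and Leydig cells. The brain holds neurons, glia and vessels. In both organs a bulk profile is a mixture, so a mark in a small share of cells and a weak mark in all cells cannot be told apart.

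H3K27ac was profiled by chromatin immunoprecipitation and sequencing in wild-type male zebrafish of the AB strain. Testis and brain came from fish aged 10 months, with 8 testes or 12 brains pooled per replicate and 2 replicates and 2 input DNA libraries for each tissue. The regions were excluded with 1 replicate of 20 hearts at 10 months, 2 replicates of 20 hearts at 1 year and 2 replicates of 5 intestines at 1 year, each with input DNA. Chromatin was sheared to 175 bp at 10 months and to 200 bp at 1 year. Testis and brain therefore shared age and fragment size, and the 1-year sets differed from them in both, so for the intestine the tissue cannot be told apart from age and fragment size.

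Each set was deposited as 1 list of super-enhancers and 1 list of typical enhancers in coordinates of the build Zv9, with no value per replicate. The lists held 10015 testis regions over 60.5 Mb, 13235 brain regions over 171 Mb, 13802 regions of the heart at 10 months over 133 Mb, 14212 of the heart at 1 year over 213 Mb and 15042 of the intestine over 197 Mb. No read counts were used here, so the depth behind each region is unknown. Intervals below are 95% intervals over regions, cover counting error only and do not cover the difference between fish, and no comparison between lists carried a test.

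Among testis typical enhancers found in 1 other set only, those with brain were the most numerous, but counted by tissue those with heart were. The 640 regions compared with 405 shared with the intestine only, 270 with the heart at 1 year only and 192 with the heart at 10 months only. The brain list was shorter in base pairs than those of the intestine and the heart at 1 year. Per Mb of the partner's list there were 3.74 regions with brain, 2.06 with the intestine, 1.27 with the heart at 1 year and 1.45 with the heart at 10 months. The heart values are low by construction, since a region in both hearts counts for neither. With both hearts taken as 1 tissue, 754 regions were in heart and in neither brain nor intestine, and these include the 270 and the 192.

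Testis enhancers outside heart and intestine overlapped brain less often than those inside them. Of the 2991 testis typical enhancers in none of the 3 heart and intestine sets, 21.4% (19.9 to 22.9) overlapped brain, which are the 640 regions, and the other 2351 were in the testis list only. Of those in 1 of the 3 sets 27.3% overlapped brain, of those in 2 sets 37.8%, and of the 4154 in all 3 sets 75.3% (74.0 to 76.6). The gap between none and all 3 sets was present in each of 4 classes of length. Among testis regions of up to 2 kb the share with brain was 18.7% for those in none of the 3 sets and 81.2% for those in all 3. Among regions over 8 kb it was 29.2% for those in none and 79.3% for those in all 3.

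In the testis the regions were short and close in length to the rest. Their median length was 3.40 kb (3.20 to 3.60), with an upper and lower quartile of 4.80 and 2.20 kb and a range of 0.399 to 46.6 kb. All other testis typical enhancers had a median of 3.40 kb and quartiles of 5.20 and 1.999 kb. Testis-only regions had a median of 3.20 kb, and the 3129 regions in all 5 sets had one of 3.20 kb with an upper quartile of 7.20 kb. Between 2 and 4 kb lay 44.1% (40.2 to 48.0) of the 640 regions, against 37.1% of the other testis typical enhancers. Regions over 8 kb made up 10.6% (8.35 to 13.3) of the 640 and 15.5% of the others. Middle lengths were not particular to the 640, since testis-only regions had an upper and lower quartile of 4.40 and 2.20 kb. The 640 and the testis-only regions make up the 2991 in none of the heart and intestine sets. Of these 2991, 1322 were between 2 and 4 kb and 233 were over 8 kb.

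Most of the regions were single stretches of the mark. A region is named with the count of loci joined into it, and 634 of the 640 names held one. Of these, 563 were a single locus, 61 joined 2 loci, 8 joined 3, and 1 region each joined 4 and 7. The share joined from more than 1 locus was 11.2% (8.85 to 13.9), between 7.03% (6.02 to 8.14) of testis-only regions and 26.7% (25.2 to 28.3) of regions in all 5 sets. It was 10.9% for regions shared with the intestine only and 11.8% for those shared with the heart only. Many testis regions share a name with others of another length, so the number of loci read from the name is less certain there. Over the members whose signal matched their own length the share was 16.9% (11.4 to 23.6). The shares of the other kinds above were not limited in this way. Joined regions were more common in general where the signal matched. Of testis typical enhancers with a matching signal, 1734 had 1 locus, 469 had 2 and 167 had 3. Of those without, 6056 had 1 locus, 807 had 2 and 62 had 3.

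**Figure D1:**
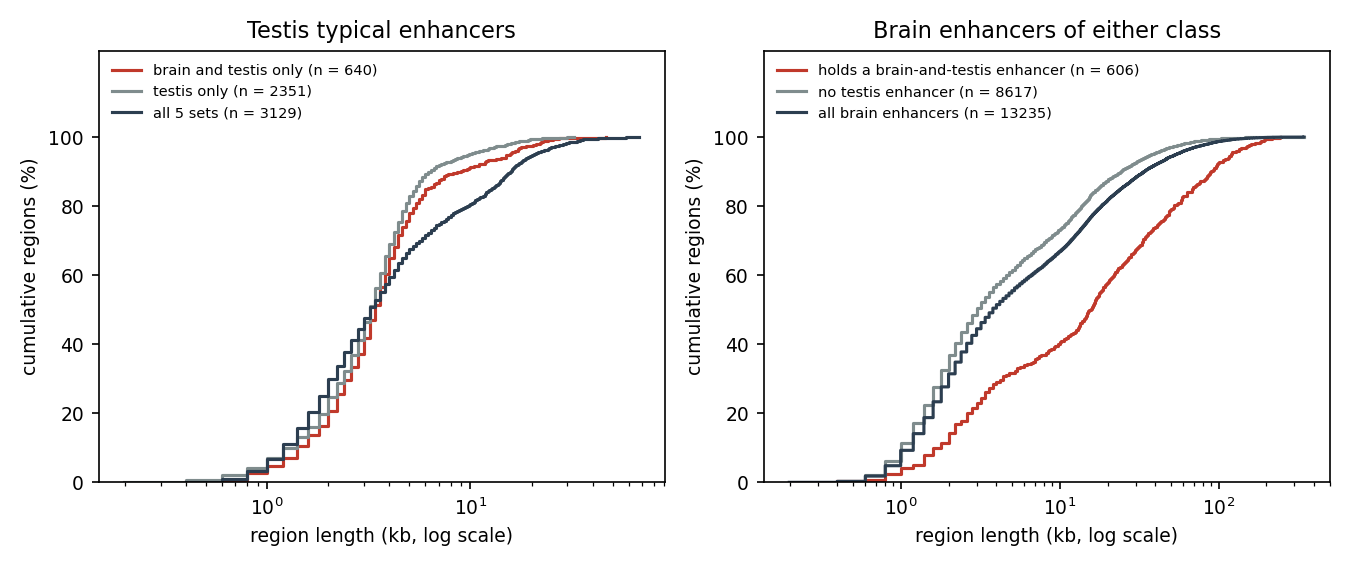
Cumulative share of regions by length on a log axis in kb. On the left are testis typical enhancers in brain and testis only, in testis only and in all 5 sets, where the first curve runs between the others above about 4 kb. On the right are the 606 brain regions that hold a brain-and-testis enhancer, with a median of 15.6 kb, beside brain regions with no testis enhancer, with a median of 2.999 kb, and all brain regions.

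In the brain the overlapping regions were mostly longer. Each of the 640 regions overlapped 1 brain region, and the brain region had a median length of 16.7 kb (14.8 to 19.4), with quartiles of 3.60 and 49.1 kb and a maximum of 242 kb. The brain region was longer than the testis region in 482 cases, of equal length in 26 and shorter in 132, and the median ratio of brain to testis length was 4.61. Lengths in testis and brain were only weakly related across the regions (Spearman's rho 0.12 over 640 pairs, a description over regions of the same lists). Long brain regions were not particular to the 640. For testis regions in brain and 1 or 2 other sets the brain region had a median of 13.4 kb (10.6 to 16.0). That interval overlaps the one of the 640 regions. For regions in all 5 sets the median was 7.20 kb (5.999 to 8.00). Longer regions overlap others more easily, so the lengths of the brain regions were not tested against the rest of the brain list.

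**Figure D2:**
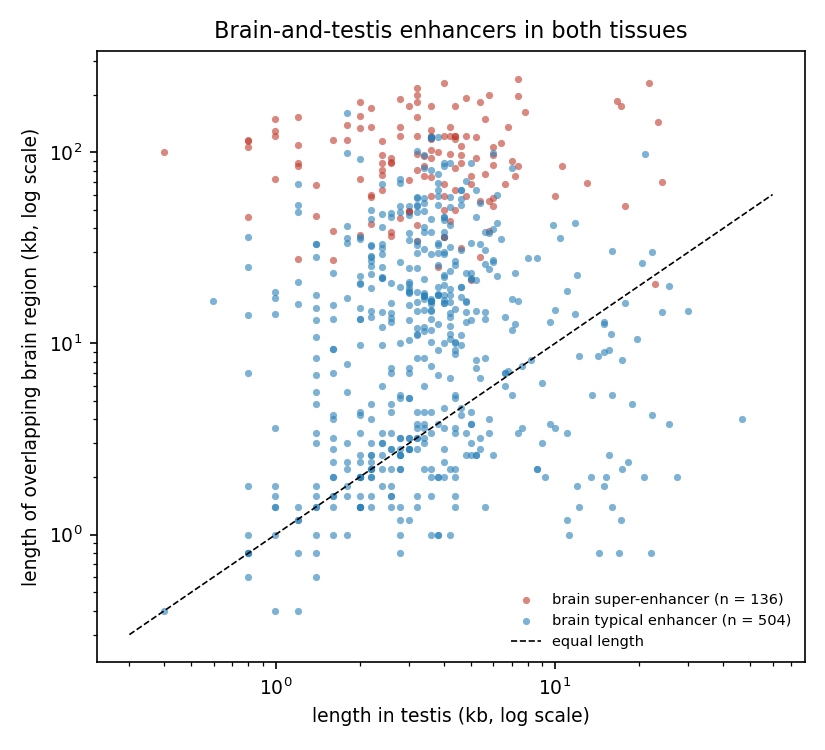
Length of each of the 640 regions in testis against the length of the brain region it overlaps, both in kb on log axes, coloured by the class of the brain region. Most points lie above the dashed line of equal length, and all but 1 of the 136 regions in brain super-enhancers do.

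The overlap was usually complete on the testis side. In 373 cases (58.3%, 54.4 to 62.1) the testis region lay inside the brain region without sharing both ends, and the brain region then had a median of 35.4 kb. In 20 cases both had the same ends, with a median length of 1.90 kb. The testis region contained the brain region in 72 cases (11.2%), and in 175 (27.3%) it overhung one end. The median share of the testis region inside the brain enhancer was 100%, with a lower quartile of 68.1%, whereas the median share of the brain region inside the testis enhancer was 18.2% (14.9 to 21.2).

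The shared stretch had a median of 2.60 kb and quartiles of 1.60 and 3.999 kb. At the edge of the rule, 73 regions shared under 1000 bp with brain and 3 shared the lowest amount, 199 bp. Of the regions in the list, 19 lay within 1000 bp of a heart or intestine enhancer. Just outside, 377 testis regions with brain overlap were left out although their largest overlap with any single heart or intestine enhancer was under 1000 bp. A further 20 testis-only regions came within 1000 bp of a brain enhancer without touching it.

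With an overlap of 1 bp or more counted as lying in a brain enhancer, a sizeable part of the regions lay in brain super-enhancers. These were 136 of the 640, or 21.2% (18.1 to 24.6), in 113 different brain super-enhancers, and the other 504 lay in 493 typical enhancers. Over all testis typical enhancers, 6.4% overlapped a brain super-enhancer, but that count includes regions with no brain overlap. Among testis regions with brain overlap the share was 17.0% (14.4 to 19.9) for the 740 that were also in 1 or 2 of the heart and intestine sets and 10.8% (9.74 to 11.9) for the 3129 in all 5 sets. The interval of the 640 regions overlaps that of the first group and lies above that of the second.

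In base pairs the share in super-enhancers was close to that of the brain list as a whole. Of the 2078 kb that the 640 regions shared with brain, 27.6% was in super-enhancers, and super-enhancers held 29.9% of all brain enhancer base pairs. Per Mb of brain enhancer, 11.2 kb of super-enhancers and 12.6 kb of typical enhancers were in the 640 regions. For regions in all 5 sets the values were 46.2 kb per Mb of super-enhancer and 83.4 kb per Mb of typical enhancer, with 19.1% of the shared base pairs in super-enhancers.

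Regions in brain super-enhancers and in brain typical enhancers had close median lengths in the testis. The median was 3.60 kb (3.20 to 3.999) in super-enhancers, against 3.40 kb (3.20 to 3.60) in typical enhancers. The brain regions around them had medians of 91.3 kb for super-enhancers and 10.9 kb for typical enhancers. The testis region was wholly covered in 121 of 136 cases (89.0%) with a super-enhancer, against 272 of 504 (54.0%) with a typical enhancer. It took up a median of 3.78% of the super-enhancer and 28.9% of the typical enhancer. Super-enhancers joined a median of 12 loci and the typical enhancers 2.

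The largest shared stretches in super-enhancers were on chromosomes 25, 13, 20, 19 and 11. On chromosome 25 a testis region of 24.2 kb, from 36468801 to 36492999, lay inside a brain super-enhancer of 69.4 kb that joined 8 loci. On chromosome 13 a region of 23.4 kb from 10702001 to 10725399 lay in a super-enhancer of 144 kb with 17 loci. On chromosome 20 a region of 21.6 kb from 38900001 to 38921599 lay in a super-enhancer of 230 kb with 23 loci and a brain signal of 124213. All 3 super-enhancers met an enhancer of each heart set and of the intestine elsewhere along their length.

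The remaining pair differed in this. The region of 17.8 kb on chromosome 19 from 29927001 to 29944799 took up 34.0% of a brain super-enhancer of 52.4 kb that met no heart or intestine enhancer at all, the nearest of which was 88.6 kb from the testis region. The region of 17.2 kb on chromosome 11 from 31780001 to 31797199 lay in a super-enhancer of 174 kb that met 1 of the 3 sets. No gene is named for any region, because an annotation of Zv9 was not used here.

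A testis region free of heart and intestine did not need a brain region that was free of them. Of the 606 brain regions that held a member, 385 (63.5%) met no enhancer of the 3 heart and intestine sets, 104 (17.2%) met all 3 and the others met 1 or 2. Over the whole brain list 34.2% met none and 41.9% met all 3. The rule favours brain regions that met none, since part of each overlaps a testis region free of heart and intestine. The difference from the whole list was not tested. The 385 held 397 of the 640 regions (62.0%, 58.1 to 65.8), and the other 243 lay in brain regions that reached into heart or intestine enhancers outside the testis region.

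The brain regions of these groups differed in size and class. Where the brain region met neither heart nor intestine its median length was 5.999 kb (4.40 to 8.40) and 9.07% (6.43 to 12.3) of the testis regions were in super-enhancers. Where it met one of them the median was 49.999 kb (42.8 to 58.8) and the share in super-enhancers was 41.2% (34.9 to 47.6). The groups were not compared at equal brain length, so the part of length in the difference in class was not tested. The testis regions had a median of 3.20 kb where the brain region met neither and 3.60 kb where it met one. Counted from the brain, 434 brain enhancers of either class met the testis list and no other, of which 27 (6.22%, 4.14 to 8.92) were super-enhancers. That interval holds the share over all 13235 brain enhancers, 5.02%. The share was 2.41% for brain enhancers that met no testis enhancer and 10.6% for those that met all 4 other sets.

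Heart and intestine enhancers were often near. The gap to the nearest one had a median of 20.2 kb (17.4 to 22.001) and quartiles of 7.15 and 48.1 kb, against 17.4 kb (16.6 to 18.4) for testis-only regions. It was 10 kb or less for 199 regions (31.1%) and 50 kb or less for 490 (76.6%). The 3 regions farthest from such an enhancer included 2 in the same brain super-enhancer on chromosome 22, from 36639001 to 36774199 (135 kb, 16 loci). One ran from 36643601 to 36647799, 516 kb from the nearest heart or intestine enhancer, and the other from 36709801 to 36716599, at 447 kb. The remaining one was a region of 2.20 kb on chromosome 10 from 31272601 to 31274799, at 482 kb. It shared 1.20 kb with a brain typical enhancer of 1.60 kb. It also stood alone in the testis, 424 kb from the next testis enhancer.

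**Figure D3:**
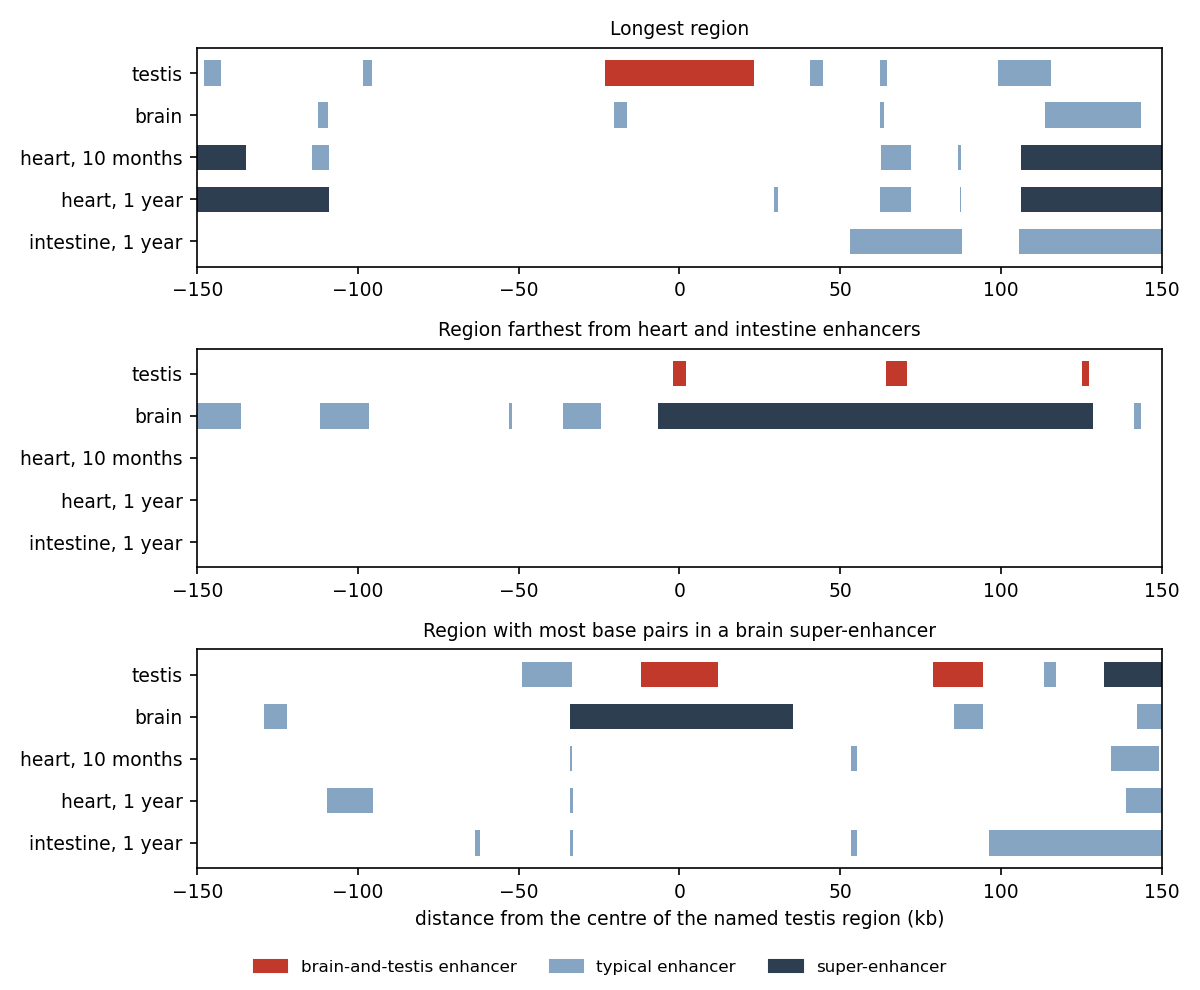
Enhancers of the 5 sets within 150 kb of 3 named testis regions, drawn to scale by distance in kb from the centre of the testis region, with rows for testis, brain, both hearts and intestine. In the upper panel the 46.6 kb testis region has a brain enhancer of 3.999 kb inside it, in the middle panel 3 testis regions lie along a 135 kb brain super-enhancer and the heart and intestine rows are empty, and in the lower panel a 24.2 kb testis region lies inside a 69.4 kb brain super-enhancer.

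The 5 longest testis regions were covered by brain enhancers only in part. The first, on chromosome 15 from 21270001 to 21316599, was 46.6 kb long and joined 7 loci, and its brain partner was a single locus of 3.999 kb that covered 8.58% of it. On chromosome 5 a region of 30.0 kb from 23284801 to 23314799 was covered to 21.3%. On chromosome 17 a region of 27.2 kb with 4 loci, from 28378201 to 28405399, contained a brain enhancer of 1.999 kb and was covered to 7.35%. The regions of 25.6 kb on chromosome 1 from 5077001 to 5102599 and on chromosome 6 from 10433001 to 10458599 were covered to 40.6% and 14.8%. All 5 overlapped brain typical enhancers that met no heart or intestine enhancer.

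The regions with most joined loci included those on chromosomes 15 and 17. The others were regions with 3 loci on chromosome 1 from 6732001 to 6754799, on chromosome 1 from 46760401 to 46782399 and on chromosome 4 from 21336201 to 21360399, taken in chromosome order among the 8 with 3 loci. The second of these met brain over 0.799 kb, or 3.63% of its length. The region on chromosome 4 was covered to 48.8%. The first shared 12.2 kb with a brain super-enhancer of 20.4 kb. That super-enhancer was a single locus and shorter than the testis region, which was the 1 such case among the 136, and a heart or intestine enhancer lay 0.801 kb from the testis region.

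Signal per base pair in the testis had overlapping intervals between the regions and other testis enhancers. The deposited signal could be tied to the region's own length for 165 of the 640 regions (25.8%), and over these the median was 0.398 signal units per bp (0.390 to 0.426), with quartiles of 0.363 and 0.490. The medians were 0.410 (0.397 to 0.420) over 569 testis-only regions and 0.412 (0.398 to 0.423) over 873 regions in all 5 sets. Signal of the brain list has its own scale. There the median was 0.480 (0.461 to 0.498) for 131 members in super-enhancers and 0.409 (0.397 to 0.424) for 245 in typical enhancers. Over the 96 pairs with own signal in both lists, Spearman's rho between testis and brain was 0.21, a description over regions of the same lists.

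The highest testis signal per bp was found in very short regions. It was 0.866 units per bp in a region of 0.999 kb on chromosome 21 from 15478801 to 15479799, which lay wholly in a brain enhancer of 1.80 kb. It was 0.780 on chromosome 15 from 46796801 to 46797199 and 0.703 on chromosome 24 from 26447601 to 26448399, regions of 0.399 and 0.799 kb whose brain partners had exactly the same ends. The others lay in super-enhancers. A region of 0.399 kb on chromosome 9 from 13990601 to 13990999 had 0.722 units per bp and stood at the first base of a brain super-enhancer of 99.8 kb. One of 0.799 kb on chromosome 24 from 30978601 to 30979399 had 0.661 and lay in a super-enhancer of 45.8 kb.

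All 25 chromosomes carried such regions, from 14 on chromosome 12 to 35 on chromosome 7, with a median of 26. As a share of the testis typical enhancers of the chromosome they ran from 3.86% (2.12 to 6.39) on chromosome 12 to 8.45% (5.54 to 12.2) on chromosome 4, where 25 of 296 were members. Chromosome 11 had 8.44% and chromosome 9 had 8.36%. The interval of 1 chromosome of 25, chromosome 12, lay apart from the share over all, 6.78%. With 25 intervals at 95%, about 1 is expected to miss the overall share through counting error.

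Chromosome length was taken here as the end of the last enhancer on it in any list. Per Mb of this length the regions ranged from 0.277 on chromosome 12 to 0.701 on chromosome 25, with 0.472 over all chromosomes. Of the regions in brain super-enhancers, chromosomes 3 and 7 had 11 each, of 25 and 35 members, chromosome 20 had 9 of 27, chromosome 6 had 1 of 20 and chromosome 21 had 0 of 26. With so few per chromosome these counts were not compared. Along the chromosome the regions lay a median of 28.4% (26.6 to 30.1) of its length from the nearer end, against 24.2% (22.9 to 25.7) for testis-only regions, 25.8% (24.9 to 26.98) for regions in all 5 sets and 26.6% (26.04 to 27.2) for all other testis typical enhancers. The last interval overlaps that of the 640 regions. The medians were higher for regions shared with the heart only, 28.6%, for those in heart and intestine but not brain, 29.1%, and for those in brain and 1 or 2 of the other sets, 29.5%.

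**Figure D4:**
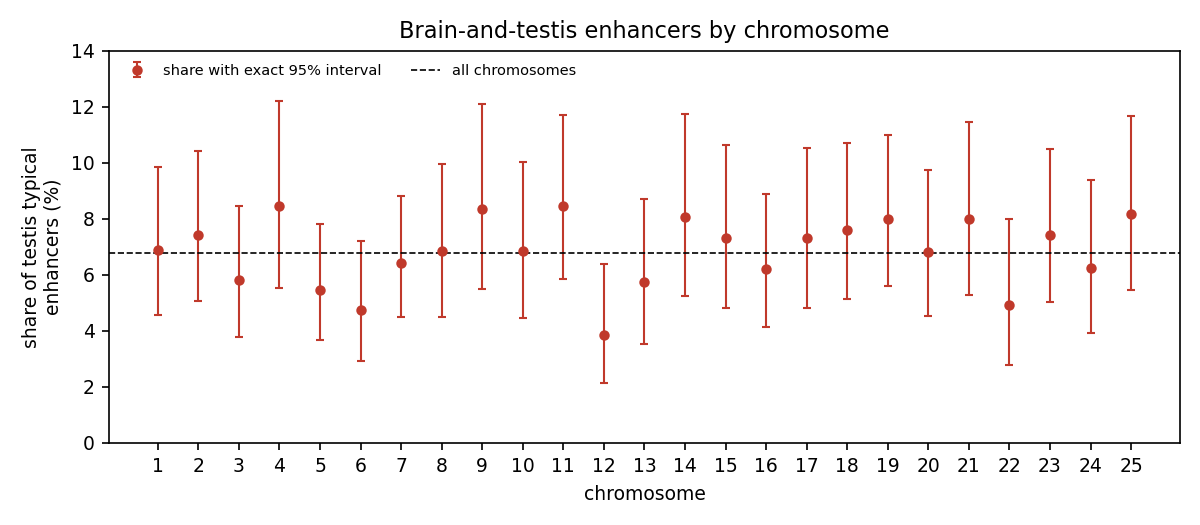
Brain-and-testis enhancers as a percentage of the testis typical enhancers of each chromosome, with exact 95% intervals, and the share over all chromosomes as a dashed line. The interval of chromosome 12 lies below the line and the other 24 cross it.

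The gap to the nearest testis enhancer of either class had a median of 44.2 kb (40.001 to 48.4), against 36.6 kb (35.8 to 37.4) for all other testis typical enhancers, 42.2 kb (40.2 to 44.4) for testis-only regions and 32.6 kb (30.0 to 36.6) for regions shared with the intestine only. The interval overlaps that of testis-only regions. Over the 165 members with own signal the median was 38.8 kb (33.4 to 46.001). That interval holds 36.6 kb, but this value is over all other testis typical enhancers, with and without own signal. The gap over those with own signal alone was not computed, so the 165 members were not compared with like regions. Gaps ranged from 1.40 to 970 kb. The gap was wider where the brain region met neither heart nor intestine, 51.4 kb (45.4 to 56.2). Where it met at least 1 of the heart and intestine sets the gap was 33.4 kb (29.0 to 39.4). These groups also differed in median brain length, 5.999 and 49.999 kb. Their median gaps to heart or intestine enhancers were 35.0 and 7.40 kb. The testis gap was not compared at equal values of either. The nearest testis super-enhancer was a median of 673 kb away (560 to 848), against 757 kb (725 to 797) for the other testis typical enhancers.

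The regions lay beside each other more often than their number in the testis list. For 106 of the 640 (16.6%, 13.8 to 19.7) the nearest testis enhancer was another of the 640, which made up 6.39% of all testis enhancers, a ratio of 2.59. The same ratio was 1.24 to 1.87 in the other 6 kinds of testis typical enhancer, with 1.87 for regions shared with the heart only and 1.40 for those shared with the intestine only. A kind that makes up more of the list cannot reach as high a ratio, and the ratios were not tested. Nearest neighbours are often mutual, while the intervals treat regions as independent, so intervals for nearest neighbours are likely too narrow. Of the 106, 52 shared the brain region with their neighbour and 54 did not. Brain overlap was part of the rule, so a single long brain region can make neighbouring testis regions members together. The nearest testis enhancer overlapped brain for 57.8% (53.9 to 61.7) of the 640, against 56.6% (52.96 to 60.2) of regions in brain and 1 or 2 of the other sets, 54.9% (53.1 to 56.6) of regions in all 5 sets and 41.8% (39.8 to 43.8) of testis-only regions. Of all testis enhancers 49.3% overlapped brain. Regions in heart and intestine but not brain were nearest for 7.34% (5.45 to 9.65), and made up 14.1% of testis enhancers. For regions in brain and 1 or 2 other sets it was 10.8% (8.49 to 13.4), against 7.39% of testis enhancers. For regions in all 5 sets it was 25.9% (22.6 to 29.5), against 31.2%. For the remaining kinds the interval held the share of the list.

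**Figure D5:**
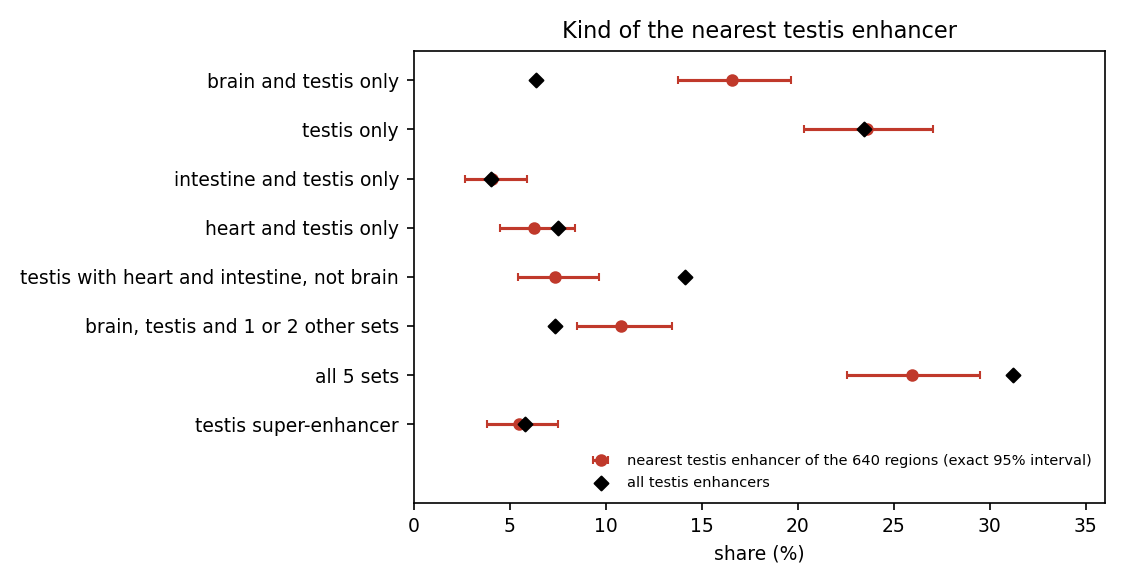
Kind of the testis enhancer nearest to each of the 640 regions, as a percentage with exact 95% intervals, beside the percentage of that kind among all 10015 testis enhancers. Other brain-and-testis regions were the nearest for 16.6% against 6.39% of the list, and regions in heart and intestine but not brain for 7.34% against 14.1%. Regions in brain and 1 or 2 other sets were also above their share, and regions in all 5 sets below it.

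In chromosome order 178 of the regions (27.8%, 24.4 to 31.5) had another of the 640 as the next testis enhancer on 1 or both sides, and 462 did not. The same share was 58.2% of the 3129 regions in all 5 sets and 52.2% of the 2351 testis-only regions. It was 35.7% of the 1415 in heart and intestine but not brain and 22.3% of the 754 shared with the heart only. For the 740 in brain and 1 or 2 other sets it was 19.5%, and for the 405 shared with the intestine only 11.4%. The kinds differ in number, and these shares were not tested. Next neighbours come in pairs or longer runs, so the interval of the 178 is likely too narrow. The 178 formed 80 runs, of which 69 were pairs, 5 held 3 regions, 5 held 4 and 1 held 5. Gaps between regions that followed each other on a chromosome had a median of 1053 kb, with a minimum of 12.8 kb, and 41 of 615 (6.67%) were 50 kb or less. Taken in the same way, the median was 324 kb among testis-only regions, with 12.1% of gaps at 50 kb or less. Among regions in all 5 sets it was 211 kb, with 17.7%, and among those shared with the intestine only 1865 kb, with 4.47%. Testis regions named with a count of loci lay at least 12.6 kb apart, so closer pairs could be found only among the few without one.

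The run of 5 was on chromosome 2 from 44059801 to 44206799, a stretch of 147 kb. Its regions were 3.999 to 15.0 kb long and overlapped 4 brain typical enhancers of 12.6 to 45.8 kb. No super-enhancer was involved. A run of 4 on chromosome 3, from 30503001 to 30761399, had 3 regions in a brain typical enhancer of 119 kb and 1 in a super-enhancer of 148 kb. A run of 4 on chromosome 11, from 31673401 to 31843199, overlapped a single brain super-enhancer. The last of its regions was covered to 59.1%.

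Few brain regions held several of the testis regions. Of the 606, 578 held 1, 24 held 2, 2 held 3 and 2 held 4. The super-enhancer on chromosome 11 from 31667601 to 31841399 (174 kb, 19 loci) held 4 testis regions of 2.999 to 17.2 kb, which covered 15.2% of it. The super-enhancer on chromosome 20 from 41579601 to 41700399 (121 kb, 17 loci) held 4 of 0.999 to 4.40 kb, which covered 10.8%, and it met no heart or intestine enhancer, the nearest of which was 143 to 219 kb from the testis regions. The super-enhancer on chromosome 22 named above held 3, which covered 9.76%, as did the typical enhancer on chromosome 3 from 30485001 to 30604399, where they covered 9.21%. In these 4 brain regions every testis enhancer was one of the 640. In the next, a super-enhancer on chromosome 2 from 33279401 to 33400999, 2 of 4 were. Brain class did not follow the deposited signal in every case. The typical enhancer on chromosome 3 had a brain signal of 46601.4, above the 43922.5 of the super-enhancer on chromosome 20.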

How the data were processed

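The authors deposited, for every tissue and age, a list of super-enhancers and a list of typical enhancers in Zv9 coordinates. Tools named in the submitters' processing notes, with no roles, are SICER 1.1, bedtools 2.24.0, SAMtools 0.1.8, Bowtie2 2.1.0 and CASAVA. The joining of loci, the super-enhancer threshold, the use of input and the combining of replicates are not stated there. The deposited signal is a total over the region with no stated scaling between lists. Regions of one name in a 10-month list have one signal even where their lengths differ. Signal per bp was therefore taken only where signal times 10000 was a whole multiple of the length, with no tolerance.

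Length is end minus start, and starts are given counted from 1. Names without a number of loci were left out of counts of loci. Shares carry exact Clopper-Pearson intervals and medians order-statistic intervals, both at 95%. Regions named are the 5 longest, the 5 with most loci, the 5 with the highest own signal per bp, the 5 with most base pairs in brain super-enhancers, the 5 brain regions with most members, the 3 farthest from heart and intestine and the 3 longest runs. Members and choices were set with earlier results of these data known. The overlap step was tested on simulated lists with planted members. The steps for gaps, neighbours and signal per bp were not tested in this way. Python 3.11.15, numpy 2.4.6, pandas 2.3.3, scipy 1.17.1 and matplotlib 3.10.9 were used.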

Additional observations from a re-analysis of the deposited data

How the results depend on the processing

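Of 72 recomputed values, 9 results under 8 alternatives, 64 stayed within the interval of the main value (within 1.5 times for the number of regions) and 8 moved. The alternatives mostly reused the same regions, so many values had little room to move. Between 91.6% and 100% of the 640 were kept under each, except that 25.8% were kept with own signal alone. With overlap set at 50% of the shorter region, the share of testis typical enhancers was 6.21% for brain overlap and 7.57% for heart or intestine overlap, and with 50% of heart or intestine overlap the share joined from more than 1 locus was 15.7%. With the heart at 1 year alone as heart the share of testis typical enhancers was 7.78%. With only testis regions that have their own signal, 165 regions remained, 16.9% joined more than 1 locus, the median gap to the nearest testis enhancer was 38.8 kb (33.4 to 46.001) and 6.06% had a member as neighbour. Fewer regions could be neighbours in that case by construction. Leaving out regions under 1000 bp gave 640 regions again, of which 592 were among the first 640. No paired analysis was possible because the lists give no value per replicate, so leaving out a replicate could not be run either.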
